A study of Mus musculus with 12 samples.

Results

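Serum amyloid A, lipocalin-2, the other acute-phase proteins and complement C3 were examined in the organ of Corti of mice lacking one or both clarins, small membrane proteins of the sound-detecting hair cells whose loss causes deafness. The set held 9 genes of the 55348 counted, namely Saa1, Saa2, Saa3, Lcn2, Orm1, Hp, Cp, C3 and Serpina3n, taken by gene symbol. The set was selected on measured values, because Saa1 was higher in Clrn2-/- than in wild-type mice, so all values of that contrast are given as a description without a test. Of the 9 genes, 7 passed the filter on low counts, and Saa3 and Orm1 did not. Saa1 reached 10 counts in 6 libraries, the 3 Clrn2-/- and the 3 double-mutant ones, and Saa2 in 3 libraries, so both passed only through the genotypes in which they were high. Counts and medians are therefore given over the other 5 genes tested (Lcn2, Hp, Cp, C3 and Serpina3n), each with at least 10 counts in all 12 libraries, and Saa2 is given as a description throughout.

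Poly-A RNA from postnatal day 21 mice was sequenced in 4 genotypes with 3 libraries each, 12 in all: wild-type, Clrn1-/-, Clrn2-/- and Clrn1-/-Clrn2-/- (double mutants). Clrn1-/- mice carry a deletion of exon 4 made by the ubiquitous PGK-cre, Clrn2-/- mice carry the clarinet nonsense mutation in every cell, and the double mutants carry both. The wild-type mice came from separate breedings and not from the litters of the mutants, so breeding and genotype cannot be told apart in the comparisons with wild-type. The tissue was freed of stria vascularis and modiolus, and the labels name no treatment. Organs of Corti were collected in triplicate from mice of more than 1 litter per group, but the sources used here do not say how many ears or mice went into a library, so p-values measure the spread between these libraries only.

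Acute-phase proteins are plasma proteins that the liver releases in large amounts during inflammation, when cytokines of the interleukin-6 family act through STAT3 and interleukin-1 and tumour necrosis factor act through NF-kB and C/EBP factors. Many are also made at low levels outside the liver, by epithelia, fibroblasts, astrocyte-like glia and leukocytes. Serum amyloid A binds lipids and attracts leukocytes, lipocalin-2 withholds iron from bacteria, haptoglobin and ceruloplasmin handle haemoglobin and copper, Serpina3n inhibits serine proteases, and C3 is the component on which the complement pathways converge.

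Saa1, Saa2 and Saa3 lie together on chromosome 7 of GRCm38, and the starts of Saa1 and Saa2 face each other across 8810 bases. In an alignment, 95.6% of 249 upstream bases and 94.4% of 606 spliced bases were identical between Saa1 and Saa2. None of the 510 stretches of 100 bases in the Saa1 transcript occurred whole in Saa2, yet shorter or mismatched alignments could still be split between both genes, and their separate values are uncertain to that extent. The 250 bases before the RefSeq start of each (GRCm38.p6, minus strand chr7:46742981-46743230 for Saa1, plus strand chr7:46751583-46751832 for Saa2) are shown because these genes moved most, with a match to the C/EBP motif TTGCNNAA in capitals.
Saa1: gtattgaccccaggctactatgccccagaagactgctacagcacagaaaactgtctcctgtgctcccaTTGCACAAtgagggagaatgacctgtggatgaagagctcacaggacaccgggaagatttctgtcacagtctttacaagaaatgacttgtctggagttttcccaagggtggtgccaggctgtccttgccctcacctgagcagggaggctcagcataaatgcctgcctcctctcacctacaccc
Saa2: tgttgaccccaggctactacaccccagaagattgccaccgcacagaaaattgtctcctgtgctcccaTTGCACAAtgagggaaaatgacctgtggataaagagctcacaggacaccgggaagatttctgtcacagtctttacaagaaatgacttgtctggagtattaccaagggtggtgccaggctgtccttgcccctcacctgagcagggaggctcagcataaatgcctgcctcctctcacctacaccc

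Promoters were held for 7 of the 9 genes in the RefSeq table, all but Orm1 and Hp. The C/EBP letters TTGCNNAA, sought on both strands, stood within 250 bases before a start in 6 of these 7 genes, against 9.56% of 32851 mouse promoters of that length. The NF-kB motif, GGG and any 2 bases before TTTCC, stood in 1 of 7 (1.41% of all promoters) and the STAT3 letters TTCNNNGAA in 0 of 7 (7.02% of all promoters). Each match is a run of letters and not a binding site. The stretches that follow show it in capitals for the other genes, on the minus strand for Saa3 (chr7:46715752-46715791), Lcn2 (chr2:32387932-32387971) and C3 (chr17:57228158-57228197) and on the plus strand for Cp (chr3:19957163-19957202) and Serpina3n (chr12:104406521-104406562). The match is to C/EBP in all of them but Serpina3n, where it is to NF-kB.
Saa3: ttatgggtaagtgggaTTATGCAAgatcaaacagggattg
Lcn2: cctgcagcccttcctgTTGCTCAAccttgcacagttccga
Cp: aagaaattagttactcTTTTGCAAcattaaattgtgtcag
C3: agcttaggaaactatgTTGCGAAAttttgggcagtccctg
Serpina3n: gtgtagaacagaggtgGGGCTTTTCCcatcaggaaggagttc

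The libraries held 30008679 to 41049302 counts on genes, so that 3 counts, the limit that a count of 0 allows, correspond to 0.0759 to 0.0983 CPM (a gene's counts relative to the TMM-scaled library size, and limits cover counting error only). Clrn1 was at 23.8 to 31.5 CPM in the libraries labelled wild-type or Clrn2-/- and at 1.77 to 3.04 CPM in the other 6. Clrn2 was at 1.89 to 3.24 CPM in wild-type and at 0.854 to 1.38 CPM in all 3 mutants, Clrn1-/- included, so its level does not check the Clrn2 label. Markers of hair cells (summed level 300 to 486 CPM) and of supporting cells (2980 to 6870 CPM) were present in every library, as were those of stria vascularis (418 to 669 CPM) and neurons (9320 to 15300 CPM). Of 10 hepatocyte markers, Alb, Ahsg and Tat had at most 1 count in any library, Ambp at most 2 and Serpina1c 0. Apoa1 had at most 7 counts and Apoa2 at most 10. Ttr (215 to 4050 counts), Apoc3 (8 to 24) and Cyp2e1 (7 to 29) of the same list were present in every library. In bulk tissue, fewer cells of a type and less RNA per cell cannot be told apart.

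Per length, Cp was the most abundant of the 9 genes, with a median level of 53.3 FPKM over the 12 libraries, on spliced transcript length. Lcn2 followed at 2.54 FPKM, C3 at 1.33, Serpina3n at 0.995, Hp at 0.545 and Saa1 at 0.517. Saa2 lay at 0.171 FPKM, Saa3 at 0.103 and Orm1 at 0.0349. The ranges of neighbours overlapped throughout this order below Cp, whose lowest library (41.6 FPKM) lay above the highest of any other gene (3.91 FPKM, Lcn2). All but Cp were thus rare transcripts in this tissue.

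**Figure D1:**
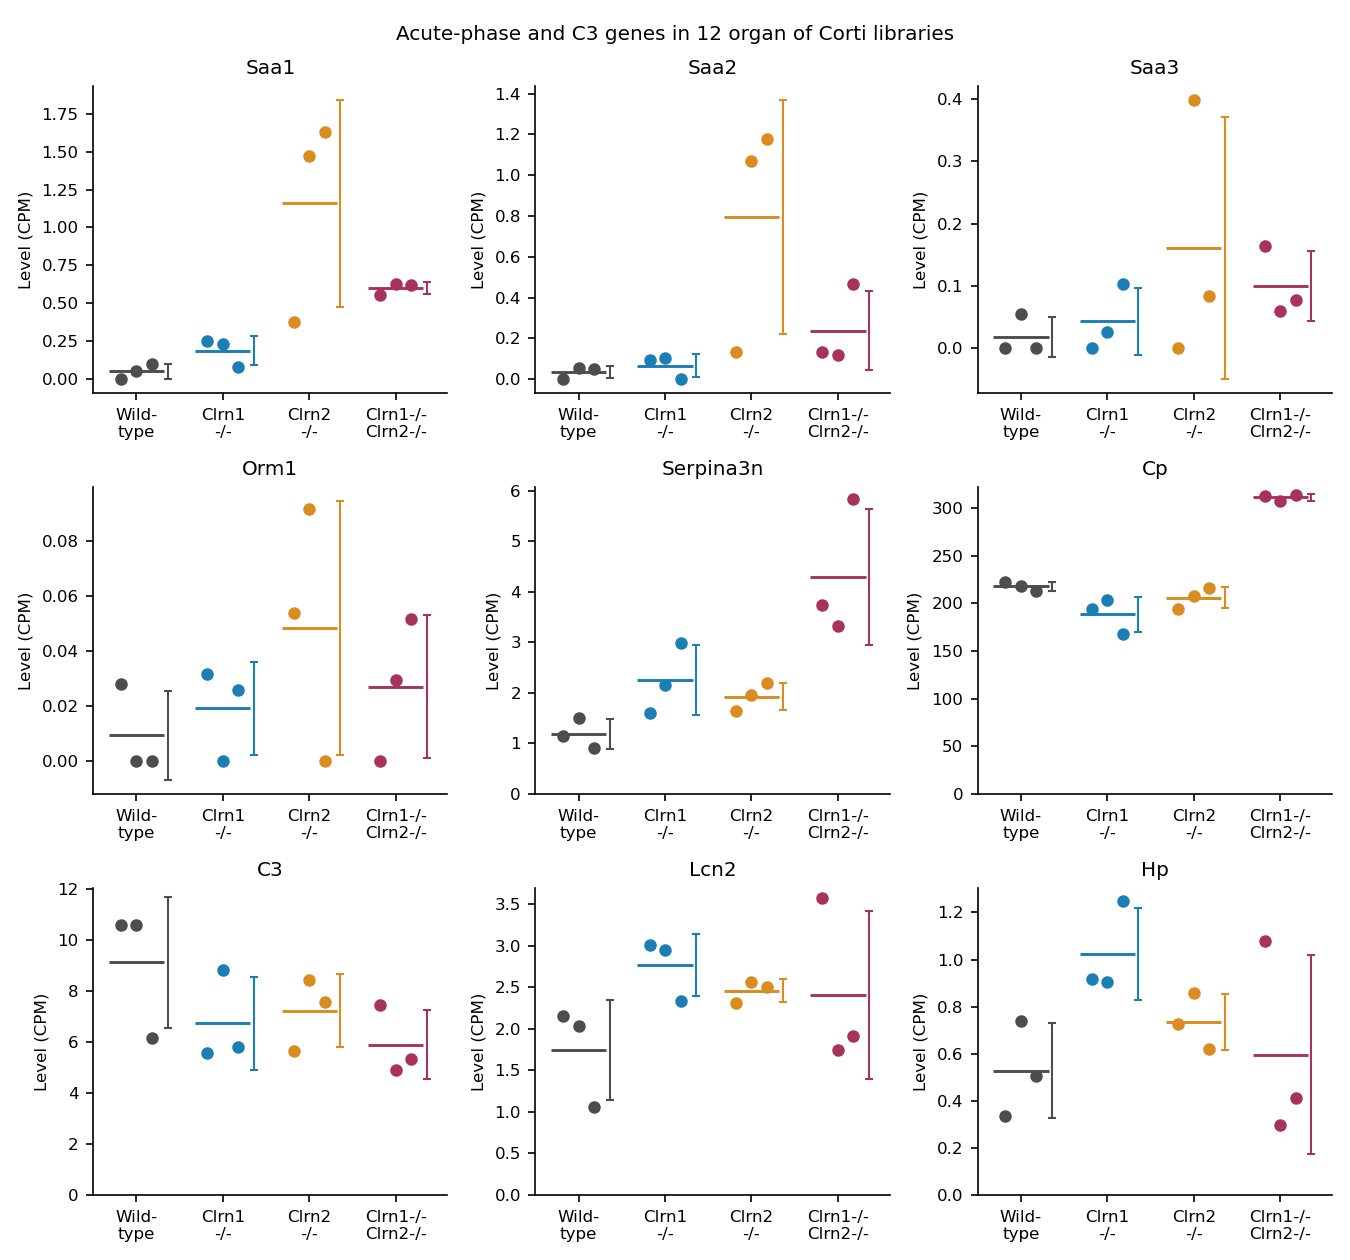
Level of each of the 9 genes in CPM (y axis) in the 12 libraries by genotype (x axis); each point is 1 library, the line is the mean and the bar beside it the SD of 3 libraries. Saa1 and Saa2 are highest in Clrn2-/- replicates 2 and 3, Serpina3n and Cp in the double mutants, and the C3, Lcn2 and Hp points of the double mutants overlap those of wild-type.

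Saa1 (ENSMUSG00000074115.5, GRCm38 chr7:46740497-46742980, minus strand), an acute-phase serum amyloid A of plasma, was close to absent in wild-type, with 0, 2 and 4 counts in the 3 libraries. It had 8, 9 and 3 counts in Clrn1-/-, 14, 48 and 58 in Clrn2-/-, and 17, 21 and 24 in the double mutants. The means were 0.0520 ± 0.0507 CPM for wild-type, 0.188 ± 0.0958 for Clrn1-/-, 1.16 ± 0.682 for Clrn2-/- and 0.600 ± 0.0371 for the double mutants (SD, n = 3). The high Clrn2-/- mean came from replicates 2 and 3, at 1.47 and 1.63 CPM, whereas replicate 1 was at 0.377 CPM, below each double-mutant library. Every Clrn2-/- and double-mutant library lay above every wild-type and Clrn1-/- library. For the contrast by which the set was chosen, Clrn2-/- against wild-type, the fitted log2 fold change was 4.33 (standard error 0.67), and the ratio of pooled CPM was 21.2, with a 95% interval of 9.45 to 58.8 that covers counting error only. The fitted value ran from 3.81 without wild-type replicate 1 to 5.21 without wild-type replicate 3, since both rest on 6 wild-type counts in all. Against the same wild-type libraries, the log2 fold change was 3.40 (standard error 0.74) in the double mutants and 1.72 (standard error 0.92) in Clrn1-/-, again as a description, because they share the wild-type libraries with the choosing contrast.

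Saa2 (ENSMUSG00000057465.5, chr7:46751790-46754313, plus strand), the close copy of Saa1, had 0, 2 and 2 wild-type counts and 3, 4 and 0 in Clrn1-/-. It had 5, 35 and 42 counts in Clrn2-/- and 4, 4 and 18 in the double mutants. The high libraries were Clrn2-/- replicates 2 and 3 and double-mutant replicate 3. Saa2 made up 42.2% and 42.0% of the counts of Saa1 and Saa2 together in those Clrn2-/- libraries and 42.9% in that double-mutant one. In double-mutant replicates 1 and 2 it made up 4 of 21 counts (95% exact binomial interval 5.45% to 41.9%, for counting error only) and 4 of 25 (4.54% to 36.1%). Saa1 therefore had about the same level in the 3 double-mutant libraries (0.557, 0.624 and 0.619 CPM), while Saa2 was at 0.131, 0.119 and 0.464 CPM. As a description, the log2 fold change of Saa2 against wild-type was 4.33 (standard error 0.93) in Clrn2-/- and 2.68 (standard error 1.14) in the double mutants, whose libraries all lay above the wild-type ones. Between the double mutants and Clrn1-/-, it had 26 counts against 7 and a log2 fold change of 1.89 (standard error 1.02).

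Saa3 (ENSMUSG00000040026.8, chr7:46711998-46715700, minus strand), the form made by macrophages and other cells outside the liver, had 33 counts in the whole series. These were 0, 2 and 0 from wild-type, 0, 1 and 4 from Clrn1-/-, 0, 13 and 3 from Clrn2-/-, and 5, 2 and 3 from the double mutants. Only Clrn2-/- replicate 2, also high for Saa1 and Saa2, reached 10 counts. Orm1 (ENSMUSG00000039196.2, chr4:63344560-63348163, plus strand), which encodes alpha-1-acid glycoprotein, had 11 counts in all and at most 3 in a library, in Clrn2-/- replicate 2. No difference in Orm1 was detectable at this depth.

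The first comparison tested was that of the double mutants with wild-type. Of the 5 genes, 1 was called higher (Serpina3n) and 1 lower (C3), where 5.88% of the 19052 genes tested were called higher and 4.02% lower. Genes were called where edgeR's quasi-likelihood test gave an adjusted p no higher than 0.05 with a fitted change that reached 1.5-fold. The median log2 fold change was 0.45 over the 5 genes and 0.00 over all genes.

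Serpina3n (ENSMUSG00000021091.8, chr12:104406729-104414329, plus strand), a protease inhibitor that reactive glia are known to induce, was at 1.15, 1.51 and 0.911 CPM in wild-type and at 3.74, 3.33 and 5.83 CPM in the double mutants. It was at 1.61, 2.15 and 2.99 CPM in Clrn1-/- and at 1.64, 1.96 and 2.19 CPM in Clrn2-/-, so each of the 9 mutant libraries lay above each wild-type one and the double-mutant libraries lay above all others. Its log2 fold change in the double mutants was 1.86 (standard error 0.26, adjusted p 3.2e-05 by edgeR), and it was called under all 21 alternatives. The Serpina3 cluster holds close copies, but Serpina3c, f, g, h, i, k and m each averaged at most 0.204 CPM in any genotype.

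C3 (ENSMUSG00000024164.15, chr17:57203970-57228136, minus strand) was at 10.6, 10.6 and 6.17 CPM in wild-type and at 7.44, 4.90 and 5.34 CPM in the double mutants. Wild-type replicate 3 lay below double-mutant replicate 1, so the groups overlapped. The log2 fold change was -0.64 (standard error 0.23, adjusted p 0.0368 by edgeR). The call did not hold under limma-voom (adjusted p 0.0531), DESeq2 (0.0779) or scaling by library size alone (0.0576), nor without wild-type replicate 1 (0.131) or 2 (0.122) or double-mutant replicate 2 (0.139) or 3 (0.116). The C3 levels of Clrn1-/- (5.57, 8.82 and 5.79 CPM) and Clrn2-/- (5.65, 8.45 and 7.56 CPM) lay between those extremes, with log2 fold changes of -0.43 (adjusted p 0.167 by edgeR) in Clrn1-/- and, as a description, -0.34 in Clrn2-/-.

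Cp (ENSMUSG00000003617.16, chr3:19957054-20009145, plus strand), which encodes the copper-carrying ferroxidase ceruloplasmin, was tightly grouped, at 222, 218 and 213 CPM in wild-type and 312, 307 and 314 CPM in the double mutants. The groups lay far apart relative to their spread, with a log2 fold change of 0.51 (standard error 0.06, adjusted p 5e-06 by edgeR), which is below the 1.5-fold minimum. Cp was at 194, 203 and 168 CPM in Clrn1-/-, each below the lowest wild-type library, and the log2 fold change there was -0.21 (standard error 0.06, adjusted p 0.0155 by edgeR), also below the minimum. In Clrn2-/- it was at 194, 208 and 216 CPM, overlapping wild-type. Cp shares 108 exonic bases with Hps3 on the opposite strand, and the counts used keep the strands apart. Supporting-cell markers, like Cp and Serpina3n, were highest in the double mutants, at 6270 to 6870 CPM against 2980 to 3330 CPM in wild-type. They were at 3440 to 3930 CPM in Clrn1-/-, above wild-type where Cp was below it, and at 3470 to 4290 CPM in Clrn2-/-, where Cp overlapped wild-type. Ceacam16, a protein of the tectorial membrane, was the largest part of this sum (1270 to 4150 CPM), and of the 10 markers, 5 were called higher and 1 lower against wild-type, with a median log2 fold change of 0.64. The neuronal markers were at 9320 to 9600 CPM in the double mutants against 12000 to 15300 CPM elsewhere. Summed fibroblast markers ranged from 2490 to 2670 CPM in the double mutants, above all other libraries (1710 to 2380 CPM). Summed endothelial markers did likewise, at 260 to 264 CPM against 209 to 240 CPM. Against wild-type, 2 of 9 fibroblast markers were called higher and 1 lower (median log2 fold change 0.25). Of 6 endothelial markers, 0 were called higher and 0 lower (median 0.09), and of 9 neuronal ones, 1 higher and 4 lower (median -0.62). The part of these cell types in the levels of Cp and Serpina3n was not tested.

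Lcn2 and Hp were not called in the double mutants against wild-type. Lcn2 was at 2.16, 2.03 and 1.06 CPM in wild-type and 3.57, 1.75 and 1.91 CPM in the double mutants, an overlap with a log2 fold change of 0.45 (95% interval -0.12 to 1.03). Hp was at 0.337, 0.740 and 0.506 CPM in wild-type and 1.08, 0.297 and 0.412 CPM in the double mutants, with a log2 fold change of 0.14 (95% interval -0.74 to 1.01).

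Lcn2 (ENSMUSG00000026822.14, chr2:32384633-32388252, minus strand) and Hp (ENSMUSG00000031722.10, chr8:109575128-109579172, minus strand), both stored in granules of neutrophils as well as made by epithelia, shared their high double-mutant library, replicate 1. Without it, the log2 fold change of Hp against wild-type was -0.56. The same library had the highest neutrophil markers of all, at 43.6 CPM over 12 genes led by S100a9, against 21.2 and 20.8 CPM in its group. It also held 4050 counts of Ttr, the transport protein transthyretin of the hepatocyte list, at 133 CPM. No library outside the double mutants exceeded 8.14 CPM of Ttr. Wild-type replicate 3, lowest for Lcn2, was lowest for neutrophil markers too, at 12.3 CPM against 28.7 and 27.3 CPM. The part of neutrophils in the levels of Lcn2 and Hp was not tested. In Clrn2-/-, given as a description, Lcn2 was at 2.31, 2.57 and 2.50 CPM, just above the highest wild-type library, and Hp was at 0.726, 0.857 and 0.618 CPM, overlapping wild-type. Neutrophil markers were at 25.6 to 29.6 CPM there.

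**Figure D2:**
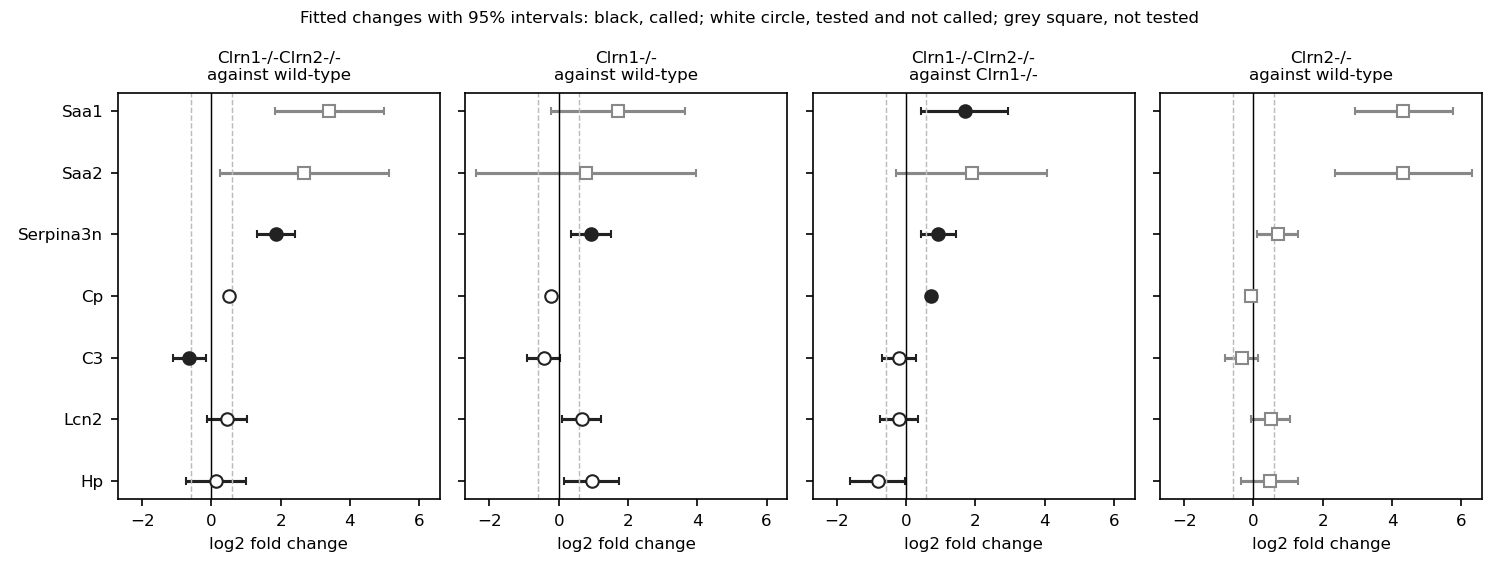
Fitted log2 fold changes (x axis) with 95% intervals for the 7 genes that passed the filter (y axis) in 4 comparisons; filled circles were called, open circles tested and not called, grey squares are descriptions, and dashed lines mark 1.5-fold. The Cp intervals are narrower than their symbols, and the Serpina3n intervals lie above 0 in each panel.

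In Clrn1-/- against wild-type, which uses the same wild-type libraries, 1 of the 5 genes was called higher and 0 lower, with 3.52% of all genes called higher and 3.70% lower. Beside the 0, 1 of the 5, Cp, was lower at an unadjusted p under 0.05 (0.00282), DESeq2 and limma-voom called 0 lower, and the edgeR fit without wild-type replicate 3 called C3. Serpina3n was the gene called, with a log2 fold change of 0.93 (standard error 0.27, adjusted p 0.0186 by edgeR) and no overlap between the groups. The call was lost without wild-type replicate 1 (adjusted p 0.0515), wild-type replicate 3 (0.0699) or Clrn1-/- replicate 3 (0.105). The median over the 5 genes was 0.66 and over all genes -0.00.

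Lcn2 and Hp were higher in each Clrn1-/- library than in any wild-type one, but neither was called. Lcn2 was at 3.01, 2.95 and 2.34 CPM in Clrn1-/-, a log2 fold change of 0.66 (standard error 0.27, adjusted p 0.0773 by edgeR). Deviations of same-numbered libraries in this comparison correlated at 0.105 to 0.269, and with a block on the replicate number Lcn2 was called (log2 fold change 0.68, adjusted p 0.0412 by edgeR). That block was fitted over all 12 libraries, and replicate numbers did not pair those of the other comparisons, so this is not a paired test. Hp was at 0.917, 0.906 and 1.25 CPM in Clrn1-/-, a log2 fold change of 0.95 (standard error 0.37, adjusted p 0.0716 by edgeR), and was called when only both genotypes were fitted (0.0458) or without wild-type replicate 2 (0.0423) or double-mutant replicate 1 (0.0227). Neutrophil markers were at 38.3 to 42.1 CPM in Clrn1-/- against 12.3 to 28.7 CPM in wild-type, and 5 of the 11 tested were called higher. Markers of airway and middle-ear epithelium, almost all of it Bpifa1, were at 43.9 to 77.9 CPM in Clrn1-/- against 3.63 to 18.6 CPM in every other library, and red blood cell markers were at 280 to 381 CPM against 428 to 1140 CPM. Of the 4 airway and middle-ear genes tested, 3 were called higher in Clrn1-/- against wild-type and 0 lower, with a median log2 fold change of 2.90. The defining airway genes Scgb1a1 and Muc5ac had at most 3 counts in any library. Scgb3a1 had 19 to 37 counts, Reg3g up to 31, and Bpifb1 and Sftpd up to 15. Bone markers were at 182 to 216 CPM in Clrn1-/- and 96.0 to 179 CPM in wild-type, and Car3 carried the fat-cell list, at 155 to 193 and 208 to 235 CPM, with at most 5 counts of its other 4 genes in any library. The part of these cells in the Clrn1-/- levels was not tested.

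**Figure D3:**
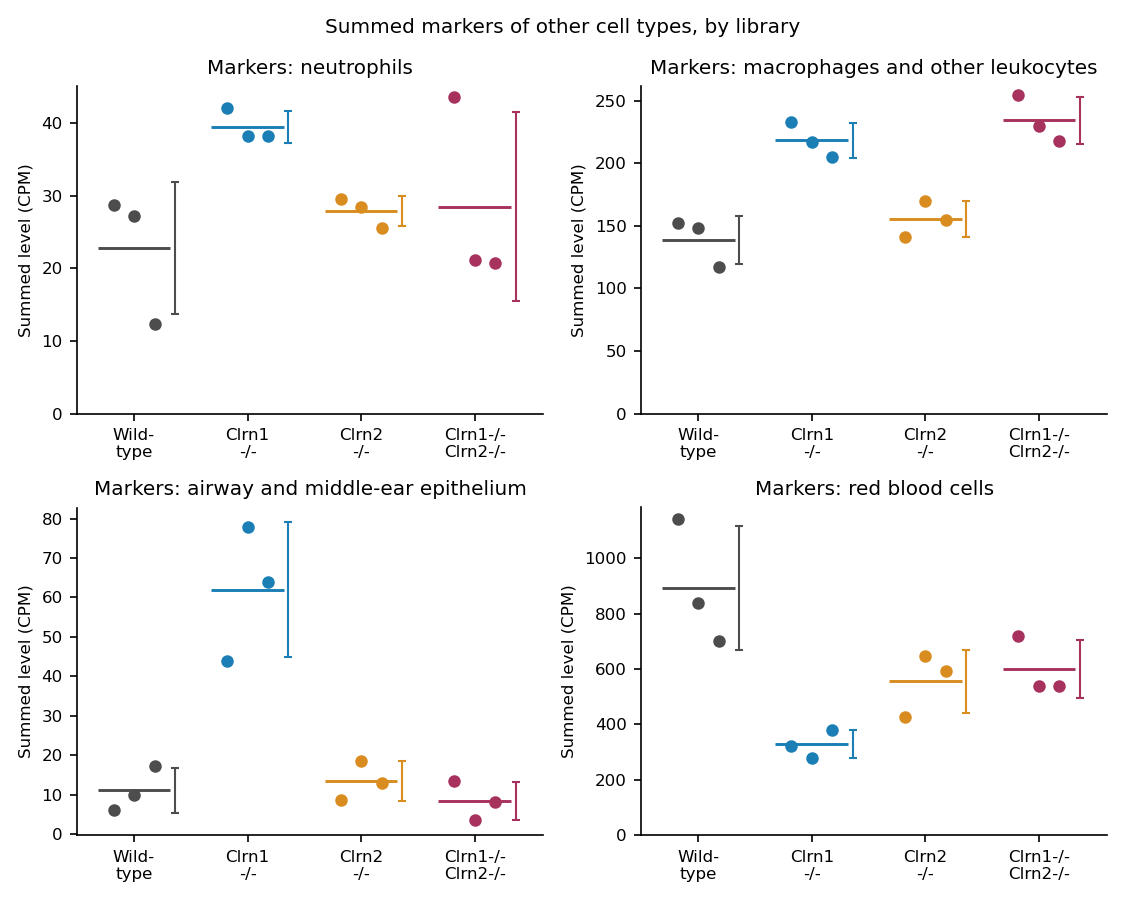
Summed level of the markers of 4 other cell types in CPM (y axis) by genotype (x axis); each point is 1 library, the line is the mean and the bar the SD of 3 libraries. Neutrophil markers are high in Clrn1-/- and in double-mutant replicate 1 (43.6 CPM), macrophage markers in Clrn1-/- and the double mutants, and the airway and middle-ear list in Clrn1-/-.

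The comparison of the double mutants with Clrn1-/-, the loss of Clrn2 on a Clrn1-/- background, compared none of the libraries that chose the set. Saa1 was therefore tested in it, but the test was not independent of those libraries, which were in the same fit and entered its estimate of the spread. Of the 5 other genes, 2 were called higher (Serpina3n and Cp) and 0 lower, where 4.62% of all genes were called higher and 2.61% lower. Beside the 0, 1 of the 5, Hp, was lower at an unadjusted p under 0.05 (0.0452 by edgeR), limma-voom called it lower and DESeq2 did not. The median over the 5 genes was -0.20 and over all genes 0.01.

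Saa1 rose by a log2 fold change of 1.69 (standard error 0.58, adjusted p 0.0391 by edgeR), with all 3 double-mutant libraries above all 3 Clrn1-/- ones. The ratio of pooled CPM was 3.28, with a 95% counting interval of 1.95 to 5.73. The call rests on 62 counts against 20, and it was lost under limma-voom (adjusted p 0.0687) and without any 1 of the 6 libraries compared, where the adjusted p lay between 0.0551 and 0.153. DESeq2 and the fit with no filter kept it. Of the libraries in which Saa1 met the filter, 3 were Clrn2-/- ones, which were enough to pass it and are no part of this comparison, and the other 3 were the double mutants themselves.

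Cp showed the most precise change of the set, with a log2 fold change of 0.72 (standard error 0.06, adjusted p 3e-07 by edgeR) between 188 ± 18.3 and 311 ± 3.84 CPM. It was called under all 21 alternatives, with log2 fold changes from 0.64 to 0.77. Serpina3n rose by 0.93 (standard error 0.24, adjusted p 0.00714 by edgeR), and the call was lost only without double-mutant replicate 3, its highest library (log2 fold change 0.63, adjusted p 0.0676). Lcn2 (-0.21), C3 (-0.20) and Hp (-0.82) were not called. Hp was called lower without double-mutant replicate 1, where its log2 fold change was -1.52 (adjusted p 0.00479 by edgeR).

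Across the 12 libraries, the log2 CPM of Saa1 and Saa2 had a Pearson r of 0.91, that of Lcn2 and Hp 0.61 and that of Serpina3n and Cp 0.60, and the other pairs lay between -0.50 and 0.50. These values describe libraries that share genotype and depth, and Saa1 and Saa2 also share sequence. The tested genes most like Serpina3n were Fam25c (r 0.966), Tmem102 (0.957), Pisd (0.952), a phospholipid-synthesis enzyme of mitochondria, Aox3 (0.949), an aldehyde oxidase, and Gm31036 (0.949). Those most like C3 were Adcyap1r1 (0.955), the receptor of the neuropeptide PACAP, Ephb1 (0.935), Myrf (0.921), a regulator of myelin genes, Cdk18 (0.920) and Slc22a8 (0.917), an organic anion transporter. Those most like Saa1 were the RNA-binding Hnrnpa2b1 (0.940) and Srsf3 (0.923), the telomere protein Terf1 (0.916), the interferon-inducible Ifi208 (0.912) and Ppp1r27 (0.909). All 5 shared with Saa1 the order of genotype means, from wild-type through Clrn1-/- and the double mutants to Clrn2-/-, at very different sizes. Their choice by correlation with Saa1 over the same libraries all but fixed that order. Hnrnpa2b1 went from 463 CPM in wild-type to 522 CPM in Clrn2-/-, whereas Ifi208 went from 0.00843 to 0.344 CPM.

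The other acute-phase genes, 35 in number, were mostly those of the liver, and 13 passed the filter. Fibrinogen (Fga, Fgb, Fgg), Crp, Apcs and the Serpina1 genes were each at 0.0555 CPM or less in every genotype mean. Against wild-type, 4 of 13 were called higher in the double mutants and 2 lower (5.88% and 4.02% of all genes). Hamp, the iron hormone hepcidin, counted among these 4, had 4, 4 and 1 wild-type counts and passed the filter through the mutant genotypes alone. It is therefore given as a description, at 0.0824 ± 0.0495 CPM in wild-type and 0.608 ± 0.0803 CPM in the double mutants (log2 fold change 2.85, standard error 0.40). Ptx3, a pentraxin made at sites of inflammation, rose by 1.29 and Hamp2, a close copy of Hamp, by 1.10. The protease inhibitors Itih3 and A2m fell by 0.78 and 0.63, and without wild-type replicate 3 only 1 gene was called lower. In Clrn1-/-, 3 were called higher, namely Hamp (2.27, again a description), Ptx3 (1.10) and the lipopolysaccharide receptor Cd14 (1.02). A2m (-1.11) and transferrin, Trf (-0.64), were the 2 called lower, where the shares of all genes were 3.52% and 3.70%. Between the double mutants and Clrn1-/-, only Timp1, a metalloprotease inhibitor (0.96), was called higher and only Itih3 (-1.03) lower (4.62% and 2.61% of all genes), and with counts without strand 2 were called higher. The medians over the 13 genes were 0.17, 0.18 and 0.23.

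Of 42 cytokine and signalling genes that induce acute-phase proteins, 36 were tested. Of the inducing cytokines, Il6 was at 0.0281 CPM or less, Tnf at 0.148 CPM or less and Il11 at 0.404 to 0.685 CPM in the genotype means. In the double mutants against wild-type, 7 were called higher and 1 lower (5.88% and 4.02% of all genes). Il1b, an interleukin-1, was at 0.479 CPM against 0.227 (log2 fold change 1.11, adjusted p 0.0415 by edgeR). Lif, a cytokine of the interleukin-6 family, was at 1.47 ± 0.242 CPM against 0.317 ± 0.164 (log2 fold change 2.18, standard error 0.38, adjusted p 0.0003 by edgeR). Osmr, the oncostatin M receptor, was at 20.7 ± 0.578 CPM against 7.61 ± 1.60 (1.45, standard error 0.13), and Socs3, the feedback inhibitor that STAT3 induces, at 12.1 ± 1.50 against 5.18 ± 0.348 (1.23, standard error 0.11). Tnfaip3, an inhibitor of NF-kB signalling, fell by 0.99. In Clrn1-/-, Socs3 (0.73) and the lipopolysaccharide receptor Tlr4 (0.75) were called higher and 0 lower (3.52% and 3.70% of all genes).

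Beside that 0, 7 genes were lower at an unadjusted p under 0.05 by edgeR, the fit without wild-type replicate 2 called 1 lower, and DESeq2 and limma-voom called 0. Between the double mutants and Clrn1-/-, 4 were called higher, among them Lif (1.32), Osmr (0.88) and the transcription factor Cebpb (0.84), and 0 lower, by edgeR, DESeq2 and limma-voom alike, with 4 lower at an unadjusted p under 0.05 by edgeR (4.62% and 2.61% of all genes were called). Cebpb was at 37.7, 36.4 and 33.4 CPM in the double mutants against 18.2, 24.2 and 17.6 CPM in Clrn1-/-. Cebpb in the double mutants lay above every library of the other genotypes. The medians over the 36 genes were 0.18, 0.12 and 0.11.

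**Figure D4:**
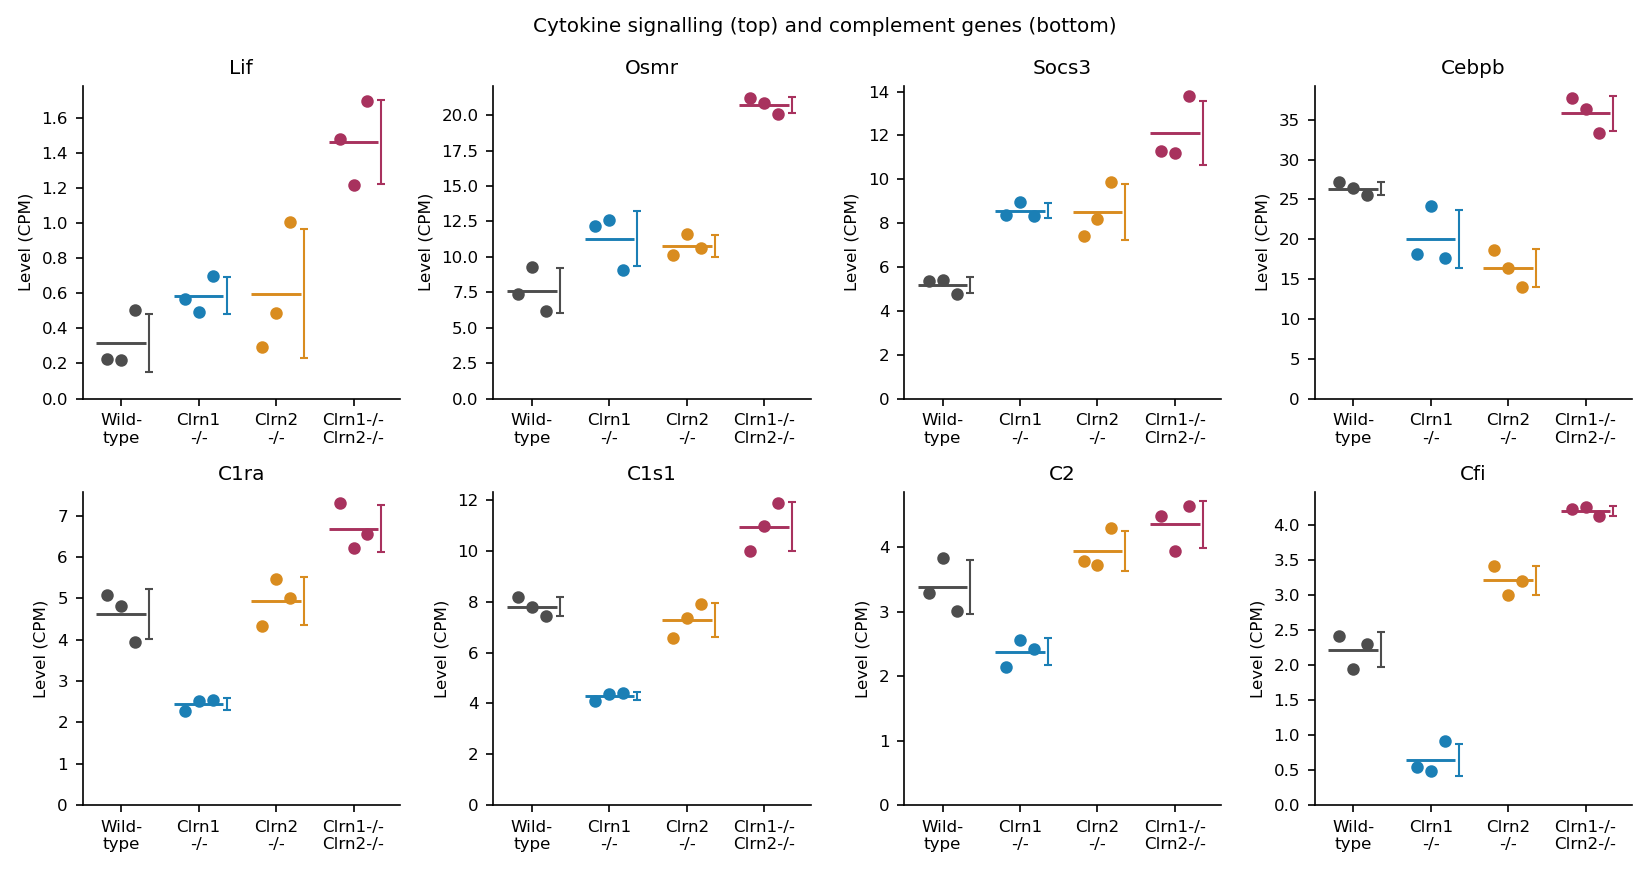
Level in CPM (y axis) of 4 cytokine-signalling genes (top) and 4 complement genes (bottom) by genotype (x axis); each point is 1 library, the line is the mean and the bar the SD of 3 libraries. The Osmr, Socs3, C1ra and C1s1 points of the double mutants lie above all others, and C1ra, C1s1, C2 and Cfi are lowest in Clrn1-/-.

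Of 46 complement genes besides C3, 33 were tested. Of the lytic components after C3, Hc (C5) was at 0.117 CPM or less and C6, C8a, C8b and C9 at 0.0643 CPM or less in each genotype mean, while C7 was at 0.661 to 0.874 CPM and C8g at 1.28 to 1.72 CPM with no call. Cfb, the alternative-pathway protease, was at 0.0365 CPM or less. Against wild-type, 8 were called higher in the double mutants and 1 lower (5.88% and 4.02% of all genes), with a median of 0.49 over the 33. They included Fcna, a pattern-recognition ficolin (log2 fold change 1.96, standard error 0.29), C5ar1, the C5a receptor of myeloid cells (1.14, standard error 0.25), and Cfi, the protease that inactivates C3b (0.92, standard error 0.16). Cd55, a membrane inhibitor of C3 convertase, fell by 0.68. The number called higher was 13 with scaling by library size alone, 4 without wild-type replicate 3 and 12 without wild-type replicate 1, and the number called lower was 2 without wild-type replicate 3.

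In Clrn1-/-, 3 complement genes were called higher and 3 lower (3.52% and 3.70% of all genes). Masp2, a lectin-pathway protease counted among the 3 higher, was at 1.58 ± 0.516 CPM against 0.187 ± 0.0461 in wild-type (log2 fold change 3.03, standard error 0.33). This is given as a description, because Masp2 had 7, 5 and 9 wild-type counts and passed the filter through mutant libraries alone. C5ar1 rose by 1.04. C1s2, a copy of C1s1 and also counted among the 3, had 2, 8 and 3 wild-type counts. It passed the filter through the Clrn1-/- libraries alone, so its rise of 1.67 is a description too. Cfi, the C3b inactivator, was at 0.646 ± 0.229 CPM against 2.22 ± 0.246 (-1.76, standard error 0.20), and the classical-pathway proteases C1ra and C1s1 fell by 0.91 and 0.86. The number called higher was 2 without wild-type replicate 3 and 5 without wild-type replicate 2, without Clrn1-/- replicate 3, with limma-voom or with library size alone.

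Between the double mutants and Clrn1-/-, 6 were called higher and 1 lower (4.62% and 2.61% of all genes). Cfi rose by a log2 fold change of 2.68 (standard error 0.19, adjusted p 7e-08 by edgeR), C1ra by 1.45 and C1s1 by 1.35, and Masp2 fell by 2.01. The medians over the 33 genes were 0.09 in Clrn1-/- and 0.12 in this comparison. Macrophage markers, at 218 to 255 CPM in the double mutants and 205 to 233 CPM in Clrn1-/- against 117 to 170 CPM in the other libraries, moved with the C1q genes and C5ar1, which macrophages express. The part of macrophages was not tested.

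Of 19 receptors and partners of the 9 proteins, 16 were tested. In the double mutants against wild-type, Ager, a receptor of serum amyloid A, was called higher (log2 fold change 0.64, standard error 0.17) and Tfrc, the transferrin receptor of iron uptake, lower, at 332 ± 15.1 against 546 ± 56.9 CPM (-0.71, standard error 0.06, adjusted p 2.1e-07 by edgeR), where 5.88% and 4.02% of all genes were called. The number called higher was 3 without wild-type replicate 2, 2 without Clrn1-/- replicate 2 or 3 or any 1 Clrn2-/- library, and 2 with no filter or the FPKM filter. With no filter the number called lower was 2, as it was without Clrn1-/- replicate 2 or wild-type replicate 3. In Clrn1-/- 0 were called in either direction by edgeR, DESeq2 and limma-voom alike, where edgeR called 3.52% of all genes higher and 3.70% lower. At an unadjusted p under 0.05 by edgeR, 2 were higher and 2 lower. Among them was Tfrc, which fell by 0.46 with an adjusted p of 4.6e-05 by edgeR, below the fold minimum. There, 3 were called higher without wild-type replicate 2, 1 was called higher without Clrn1-/- or double-mutant replicate 1 or 3 or any 1 Clrn2-/- library and with no filter or the FPKM filter, and 1 was called lower without wild-type replicate 3 or Clrn1-/- replicate 2. Between the double mutants and Clrn1-/-, only the scavenger receptor Cd36 was called higher (0.67) and 0 were called lower (4.62% and 2.61% of all genes). Beside that 0, 3 were lower at an unadjusted p under 0.05 by edgeR. The Cd36 call was lost without Clrn1-/- replicate 3 or double-mutant replicate 1. The chemotactic receptor of serum amyloid A, Fpr2, was at 0.159 CPM or less in each genotype mean, and the lipocalin-2 receptors Slc22a17 and Lrp2 were at 302 to 370 and 68.7 to 93.4 CPM, with no call.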

How the data were processed

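RNA from the organ of Corti was measured in 12 libraries of 4 genotypes. The deposited values are raw counts per gene, which the authors made with STAR on GRCm38.p6 with Gencode vM24, without normalization or pooling. Each file holds 55348 genes and 4 totals of unassigned reads (13.5% to 15.8% of a library), which were left out. Of 3 count columns the one in the orientation of the directional kit was used, with 95.2% to 95.6% of the stranded counts.

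In R 4.3.3, edgeR 4.0.16 kept genes by filterByExpr (minimum count 10), scaled libraries by TMM, fitted all 12 with genotype alone and applied the quasi-likelihood test, with p-values adjusted by Benjamini-Hochberg over 19052 genes. The thresholds for a call, 0.05 on the adjusted p and 1.5-fold, were those of the study, whose own test was limma-voom. CPM are counts over TMM-scaled library sizes, and FPKM use spliced transcript lengths of Gencode vM21, a release of the same build. Correlations use log2 CPM with a prior count of 2. Libraries of a genotype differed beyond counting noise. The fits were tested on simulated data.

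The 9 genes and the lists were chosen with earlier results of these data known. The genes named are the 9, up to 3 called genes per direction, list and comparison with the largest changes, and the 5 genes most correlated with Saa1, C3 and Serpina3n. List genes given for their levels (lytic complement, Il6, Tnf, Il11, Il1b), Ceacam16, Car3, C1q, Tfrc in Clrn1-/-, Slc22a17 and Lrp2 were named after their values were seen. Alternatives were limma-voom 3.58.1, DESeq2 1.42.0, library size alone, no filter, an FPKM of at least 0.1 in 1 library, only the 2 genotypes compared, calls with no fold minimum, a block on the replicate number, counts without strand, and leaving out each library. Replicate numbers have no stated meaning. Over 12453 genes of at least 5 CPM, deviations of same-numbered wild-type and Clrn1-/- libraries correlated at 0.269, 0.126 and 0.105, all above 0.1, and each of the 6 correlated best with its own number, so that pairing comes from the data alone. RefSeq promoters were searched on both strands over 250 bases.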

Additional observations from a re-analysis of the deposited data

Results flagged for a closer look

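Cp moved in opposite directions with the loss of Clrn1 in the presence and absence of Clrn2. Without Clrn2 loss, the 3 Clrn1-/- libraries (168 to 203 CPM) lay below the 3 wild-type libraries (213 to 222 CPM), and with Clrn2 loss, the 3 double-mutant libraries (307 to 314 CPM) lay above the 3 Clrn2-/- libraries (194 to 216 CPM). The log2 fold changes differed by 0.81, and this difference was not tested.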

How the results depend on the processing

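The calls of Serpina3n in the double mutants against wild-type and of Cp against Clrn1-/- held under all 21 alternatives run. In the double mutants against wild-type, the number of the 5 genes called higher was 1, and 2 with no fold minimum (Cp added), and the number called lower was 1, and 0 with limma-voom, DESeq2 or library size alone (C3 lost). In Clrn1-/- against wild-type, the number called higher was 1, 3 with no filter, and 2 with only both genotypes or with the replicate block, and the number called lower was 0, and 1 with no fold minimum. In the double mutants against Clrn1-/-, the number called lower was 0, and 1 (Hp) with limma-voom or no filter. Leaving out 1 library at a time gave 1 called higher in each fit and 0 to 1 lower in the first comparison, 0 to 3 and 0 to 1 in the second, and 1 to 2 (1 without double-mutant replicate 3) and 0 to 1 in the third. Hp in the double mutants against wild-type changed sign to -0.01 with limma-voom, -0.10 without wild-type replicate 1 and -0.56 without double-mutant replicate 1, and C3 against Clrn1-/- changed to 0.03 without Clrn1-/- replicate 2 (ranges over the fits without 1 library -0.56 to 0.45 and -0.41 to 0.03). The cause was not tested.

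With no fold minimum, 3632 genes were called higher and 3415 lower in the double mutants against wild-type (1120 and 766 with it), 2593 and 2537 in Clrn1-/- (670 and 705) and 2996 and 2787 between both (880 and 498). The complement genes called higher then numbered 16, 7 and 9 and the signalling genes 17, 6 and 15. Replicate numbers did not pair the libraries of the other comparisons, where 3 and 2 of 6 libraries correlated best with their own number (pairs from -0.277 to 0.301). The replicate block added Lcn2 in Clrn1-/- and changed no other call of the 5 genes or of Saa1. It did change the number of complement genes called higher in the double mutants against wild-type. At 3 counts per floor, levels of Saa1, Saa2, Saa3 and Orm1 in wild-type and Clrn1-/- are at or near the limit of depth, and leaving out a library assumes that the others vary alike.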
